A study of Mus musculus with 6 samples.

Results

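The p53 and senescence genes Trp53, Mdm2, Ccng1, Cdkn1a, Cdkn2b, Lmnb1, Glb1, Gdf15 and Plaur were examined in mouse kidney. They are 9 genes chosen by name, out of 13696 protein-coding genes in the deposited tables, and all 9 were listed. Kidney RNA had been sequenced from 6 samples of 24-month-old mice, 3 from WT (wild-type) mice and 3 from mice with a fat-1 knockin, called fat-1 below, with no treatment named. The fat-1 gene comes from a nematode and encodes a desaturase that makes omega-3 fatty acids out of omega-6 ones, and the comparison asks what it changes in the aged kidney. The labels used here give neither the promoter of the inserted gene, nor the sex or strain of the mice, nor whether each sample is a separate animal, and p-values therefore cover only the spread among these samples, which may be technical. There were no young mice, so a difference with age could not be measured.

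The p53 protein is a transcription factor that is held at a low level by the ubiquitin ligase MDM2 and released after DNA damage and other stresses. It then switches on genes that stop the cell cycle, among them Cdkn1a, which encodes the cyclin-dependent kinase inhibitor p21, and Mdm2 itself, which closes a feedback loop. Cells that stay arrested are called senescent; they tend to carry more CDK inhibitors, less lamin B1 and more lysosomal beta-galactosidase, and to secrete inflammatory and matrix-remodelling proteins. In kidney, senescent tubule cells are known to collect with age and after injury.

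Values are FPKM, that is, fragments divided by transcript length and by library size, summed over the listed transcripts of a gene. Because FPKM is divided by length, levels of different genes can be set side by side. Summed FPKM lay between 387488 and 431081 per library and the sequencing depth is unknown. Expression of the inserted fat-1 sequence was not analysed here, which leaves the genotype labels unchecked. Of the 11698 genes tested with limma on log2(FPKM + 1), 21 passed an adjusted p of 0.05 (0.18%), 14 higher in fat-1 (0.12%) and 7 lower (0.0598%). The 10 proximal tubule markers were above 0 in every library, with sums between 2977 and 3983 FPKM, as were the markers of the other nephron segments. WT replicate 1 stood apart from the other libraries. Its log2 values correlated with theirs at 0.938 to 0.942, the 12 macrophage and monocyte markers summed to 914 FPKM against 112 to 236 FPKM elsewhere, and the 8 B cell and plasma cell markers to 342 FPKM against 34.0 to 114 FPKM. In other traits it resembled fat-1 replicate 3. Genes listed at 0 numbered 158 in WT replicate 1 and 147 in fat-1 replicate 3, against 235 to 314 elsewhere. Mitochondrially encoded genes held 12.1% and 12.6% of the FPKM in these libraries, against 13.8% to 16.7%. What this does to low genes was not tested. In whole-kidney RNA, fewer cells of a type and less RNA per cell cannot be told apart.

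None of the members passed the test. Of the 9 genes, 8 reached 1 FPKM in at least 3 libraries and were tested, and 0 had an adjusted p under 0.05 in limma, against 0.18% of all tested genes (0.12% higher, 0.0598% lower); 1 had an unadjusted p under 0.05, against 9.97%. The 3 fat-1 libraries lay clear of the 3 WT libraries for 1 of the 8, Plaur, where 15.2% of all tested genes showed such a separation in either direction. The median log2 difference over the 8, fat-1 minus WT, was -0.15, and over all tested genes it was 0.01.

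**Figure D1:**
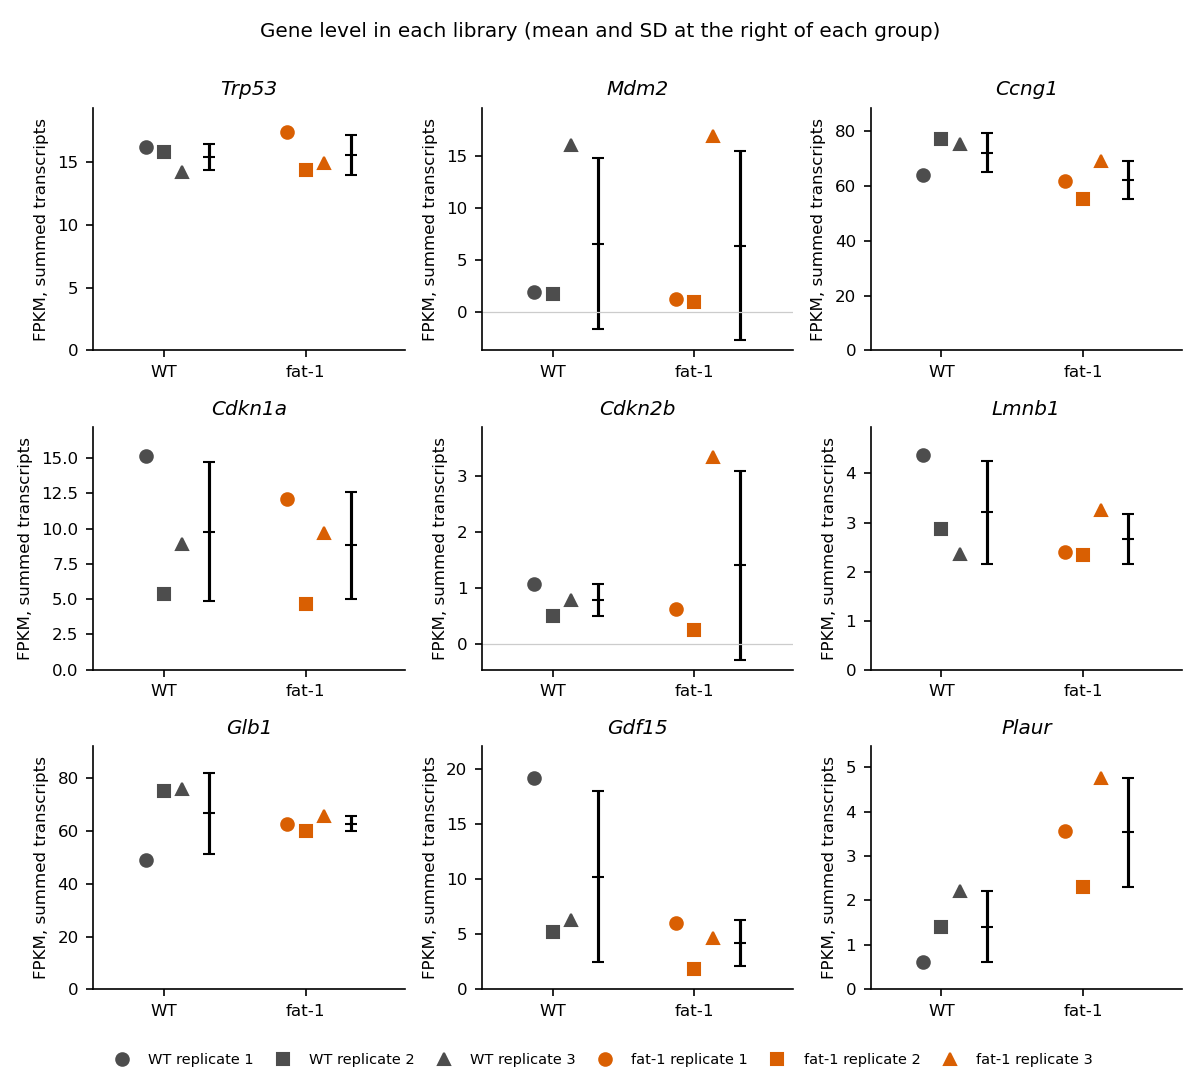
Summed FPKM (vertical axes) of each of the 9 genes in 3 WT and 3 fat-1 libraries; symbols mark the replicate, and the bar at the right of each group gives its mean and SD. Plaur alone has no overlap between the groups, and Mdm2 has 1 library far above the other 2 in each group.

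The levels spanned a wide range. Averaged over the 6 libraries, Ccng1 measured 67.1 ± 8.32 FPKM and Glb1 64.8 ± 10.1 FPKM (SD, n = 6), and Ccng1 was the higher of this pair in 3 of 6 libraries. Trp53 followed at 15.5 ± 1.22 FPKM (SD, n = 6), below Glb1 in 6 of 6 libraries and above Cdkn1a, at 9.30 ± 3.97 FPKM, in 6 of 6. From Trp53 downwards the ranges of neighbours overlapped. Below Cdkn1a, Gdf15 measured 7.21 ± 6.09 FPKM, Mdm2 6.50 ± 7.75 FPKM, Lmnb1 2.93 ± 0.796 FPKM, Plaur 2.47 ± 1.49 FPKM and Cdkn2b 1.09 ± 1.14 FPKM (SD, n = 6). The genes also differed in how far the libraries of 1 group lay apart. The SD within groups on the log2(FPKM + 1) scale was 0.12 for Trp53 and 0.15 for Ccng1, where the median of all tested genes was 0.22. It was 0.65 for Cdkn1a, 0.81 for Gdf15 and 1.64 for Mdm2.

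Trp53 encodes p53 (chromosome 11, 69580359 to 69591873, mm10). Its summed FPKM was 16.2, 15.8 and 14.2 in WT and 17.4, 14.4 and 15.0 in fat-1. The groups overlapped almost wholly, at 15.4 ± 1.05 against 15.6 ± 1.61 FPKM (SD, n = 3). Fat-1 minus WT came to 0.01 ± 0.12 (SE) on the log2(FPKM + 1) scale, with a 95% interval from -0.27 to 0.30 (limma adjusted p = 0.993). The mRNA level says nothing about the amount or activity of the protein, which is controlled mainly by its breakdown.

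Behind that steady sum, the division between the 4 listed Trp53 transcripts was different in 1 library. Trp53-202, annotated with 378 residues, held 60.8% to 67.6% of the sum in 5 libraries, at 9.13 to 10.6 FPKM. In WT replicate 2 it was at 1.71 FPKM, and Trp53-203, annotated with 390 residues, was at 9.69 FPKM there against 2.34 to 2.76 FPKM in the others. The 2 transcripts share 1725 of their 1822 and 1771 bases, so most fragments could have come from either.

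Mdm2 encodes the ubiquitin ligase that removes p53 (chromosome 10, 117688875 to 117710758). Its summed FPKM was 1.93, 1.75 and 16.1 in WT and 1.33, 1.01 and 16.9 in fat-1. Replicate 3 of each group was thus far above the other 4 libraries, and the groups overlapped. The ratio of the highest to the lowest library, 16.8, was reached or passed by 1.90% of all tested genes. The log2 difference of -0.24 ± 1.04 (SE) had a 95% interval from -2.73 to 2.26 (limma adjusted p = 0.982). An interval of this width leaves several-fold changes of either direction undetectable.

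The high value of Mdm2 sat on a different transcript in each group. In WT replicate 3, Mdm2-202 was at 15.4 FPKM and Mdm2-201 at 0.656 FPKM. In fat-1 replicate 3, Mdm2-201 was at 16.5 FPKM and Mdm2-202 at 0.401 FPKM. In the other 4 libraries Mdm2-201 lay between 0.760 and 1.66 FPKM and Mdm2-202 between 0.0820 and 0.746 FPKM. The annotation of GENCODE release M21 gives the pair 3099 shared bases and 1 stretch of 46 bases, chromosome 10, 117709654 to 117709699, that only Mdm2-202 contains. It lists 7 further Mdm2 transcripts, 3 with a retained intron, 3 processed transcripts and 1 subject to nonsense-mediated decay. The tables used here hold protein-coding transcripts, so these 7 were not analysed here, and whether fragments were assigned to them in the low libraries was not tested. Of the 6499 tested genes with at least 2 listed transcripts, 42.2% did not have the same leading transcript in all 6 libraries.

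**Figure D2:**
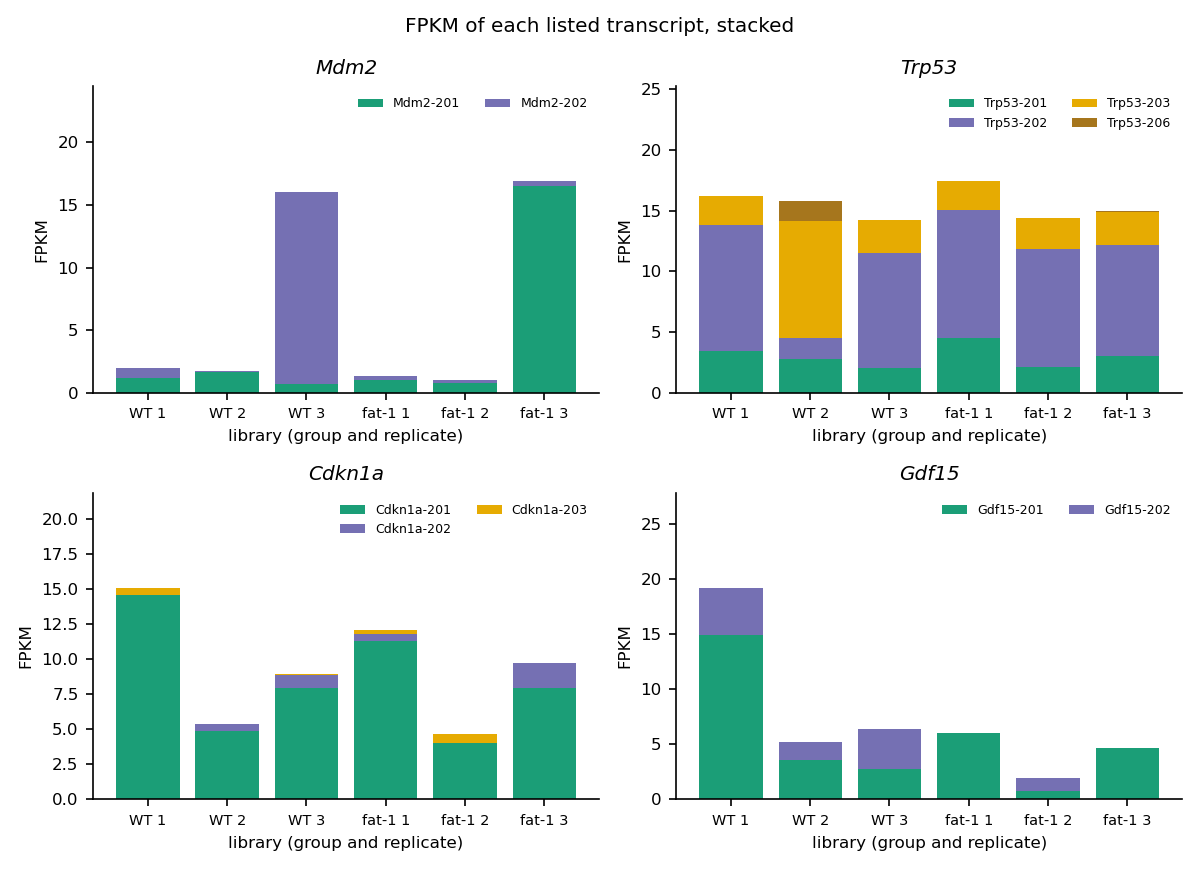
FPKM of each listed transcript (vertical axes, stacked bars starting at 0) of Mdm2, Trp53, Cdkn1a and Gdf15 in the 6 libraries, named by group and replicate. The sum of Trp53 stays between 14.2 and 17.4 FPKM while its leading transcript changes in WT replicate 2, and Mdm2 is high on Mdm2-202 in WT replicate 3 and on Mdm2-201 in fat-1 replicate 3.

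Ccng1 encodes cyclin G1, a p53 target that recruits a phosphatase to MDM2 (chromosome 11, 40748552 to 40755311). It was at 63.9, 77.1 and 75.3 FPKM in WT and at 61.9, 55.4 and 69.1 FPKM in fat-1. The 2 highest libraries were WT and the 2 lowest fat-1, but WT replicate 1 lay below fat-1 replicate 3. On the log2 scale the difference was -0.21 ± 0.13 (SE), with a 95% interval from -0.53 to 0.11 (limma adjusted p = 0.723). Of the 8 tested members, Trp53 and Ccng1 had the narrowest intervals.

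Cdkn1a encodes p21 (chromosome 17, 29090979 to 29100722). Its summed FPKM was 15.1, 5.34 and 8.91 in WT and 12.1, 4.66 and 9.71 in fat-1. Each group held 1 high, 1 middle and 1 low library, at 9.79 ± 4.94 and 8.81 ± 3.78 FPKM (SD, n = 3). The log2 difference was -0.12 ± 0.43 (SE), with a 95% interval from -1.14 to 0.90 (limma adjusted p = 0.980). Its sign was positive without WT replicate 1 (0.22) or without fat-1 replicate 2 (0.24).

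The 3 listed transcripts of Cdkn1a begin at 3 separate starts and the 2 of Gdf15 at 2, so their values can be set beside separate upstream sequences. The 250 bases before the starts of Cdkn1a-202, Cdkn1a-201 and both Gdf15 transcripts are shown for that reason; none is shown for Cdkn1a-203 (RefSeq, GRCm38.p6, written 5′ to 3′ on the gene's strand), with matches to 5 motifs in capitals: the p53 consensus half-site, the GC box GGGCGG, the NF-Y box CCAAT, the TATA box TATAAA and the AP-1 site TGANTCA, each searched on both strands. Windows were examined for 8 of the 9 members, and Lmnb1 was left out. The p53 half-site is a pattern of 10 letters whose full element joins 2 half-sites.
Cdkn1a-202, plus strand, chr17:29090729-29090978: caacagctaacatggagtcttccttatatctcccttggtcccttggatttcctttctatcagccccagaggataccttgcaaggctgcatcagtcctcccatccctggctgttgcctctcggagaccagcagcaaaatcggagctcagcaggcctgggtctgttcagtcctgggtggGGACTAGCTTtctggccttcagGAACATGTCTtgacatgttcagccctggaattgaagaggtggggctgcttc
Cdkn1a-201, plus strand, chr17:29093519-29093768: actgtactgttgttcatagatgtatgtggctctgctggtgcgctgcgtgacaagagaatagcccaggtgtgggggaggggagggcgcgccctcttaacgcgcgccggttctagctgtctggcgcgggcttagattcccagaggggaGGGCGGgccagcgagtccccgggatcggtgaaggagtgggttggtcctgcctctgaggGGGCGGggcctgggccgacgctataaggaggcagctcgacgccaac
Gdf15-202, minus strand, chr8:70632457-70632706: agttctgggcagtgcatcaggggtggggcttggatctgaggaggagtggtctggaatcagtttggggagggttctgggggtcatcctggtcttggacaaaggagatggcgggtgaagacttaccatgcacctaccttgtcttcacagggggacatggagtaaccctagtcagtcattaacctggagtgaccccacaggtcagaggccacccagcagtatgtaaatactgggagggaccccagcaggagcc
Gdf15-201, minus strand, chr8:70632096-70632345: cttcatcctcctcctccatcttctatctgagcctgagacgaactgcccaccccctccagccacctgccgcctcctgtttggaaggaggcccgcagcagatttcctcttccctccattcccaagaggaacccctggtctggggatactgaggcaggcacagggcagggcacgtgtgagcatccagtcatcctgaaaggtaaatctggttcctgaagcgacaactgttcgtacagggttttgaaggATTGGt

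The window of Cdkn1a-202 held 2 matches to the p53 half-site, starting 73 and 51 bases before the start, and 7.13% of all 32851 windows of this length held at least 1. The window of Cdkn1a-201 held 2 GGGCGG matches (32.7% of all windows held 1 or more) and its letters were 64.8% G or C, against a median of 52.4%. The window of Gdf15-201 held 1 CCAAT match on the opposite strand (33.8% of windows), and that of Gdf15-202 none of the 5 patterns; TGANTCA (6.75% of windows) and TATAAA (12.4%) were in none of the 4 shown. The windows of Mdm2, Ccng1 and Trp53 each held 1 half-site match, and those of Plaur, Glb1 and Cdkn2b none. A match describes the letters only.

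Cdkn1a-201 carried most of the gene's FPKM in every library. Its share was lowest in fat-1 replicate 3, at 81.7%, and highest in WT replicate 1, at 96.4%. Cdkn1a-202, the transcript behind the window with the half-site matches, was listed at 0 in WT replicate 1 and fat-1 replicate 2, and at 0.449 to 1.78 FPKM in the other 4 libraries. The highest Cdkn1a sum, 15.1 FPKM, was in a library where this transcript was listed at 0. The window with the matches also lies upstream of the Cdkn1a-201 start, and use of these sites was not tested. The third listed transcript, Cdkn1a-203, was at 0.645 FPKM or lower.

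Markers of injured tubules were set beside Cdkn1a. The 12 injury markers, which include Havcr1, Lcn2 and Spp1, summed to 1747, 1126 and 972 FPKM in WT and to 3011, 772 and 1787 FPKM in fat-1. Spp1 alone held most of each sum, at 1247, 769 and 654 FPKM in WT and 2475, 542 and 1333 FPKM in fat-1. The order of the libraries by the sum was the order by Spp1, and not every marker kept it. WT replicate 1, fat-1 replicate 1 and fat-1 replicate 3 held the 3 highest sums and also the 3 highest Cdkn1a values, and fat-1 replicate 2 the lowest of both, but the order within the upper 3, and of the other 2, was not the same. The injury sums of the groups overlapped (log2 difference of the sums 0.37, exact two-sided permutation p = 0.6, smallest possible 0.1), and their part in the spread of Cdkn1a was not tested.

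Cdkn2b encodes p15, an inhibitor of CDK4 and CDK6 that transforming growth factor beta can induce (chromosome 4, 89306289 to 89311032). It was at 1.06, 0.492 and 0.780 FPKM in WT and at 0.624, 0.240 and 3.34 FPKM in fat-1, too low for the fit. Fat-1 replicate 3 was the highest library, while the other 2 of its group lay within or below the range of WT. The log2 difference was 0.23 (exact two-sided permutation p = 0.9, smallest possible 0.1) and -0.31 without fat-1 replicate 3. Its chromosomal neighbour Cdkn2a, which encodes p16, was not analysed here.

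Lmnb1 encodes lamin B1 of the nuclear lamina (chromosome 18, 56707813 to 56753424). It was at 4.38, 2.87 and 2.37 FPKM in WT and at 2.41, 2.33 and 3.25 FPKM in fat-1. The groups overlapped, and WT replicate 1 was the highest library. For Lmnb1 the log2 difference was -0.18 ± 0.22 (SE), with a 95% interval from -0.71 to 0.35 (limma adjusted p = 0.891), and 0.01 without WT replicate 1.

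Glb1 encodes lysosomal beta-galactosidase, the enzyme behind the usual senescence stain (chromosome 9, 114401076 to 114474377). It was at 49.1, 75.3 and 75.9 FPKM in WT and at 62.8, 60.1 and 65.6 FPKM in fat-1. The fat-1 values lay inside the range of WT, with an SD of 2.73 against 15.3 FPKM (n = 3 each). For Glb1 the log2 difference was -0.06 ± 0.19 (SE), with a 95% interval from -0.50 to 0.38 (limma adjusted p = 0.975). WT replicate 1, the library with the high macrophage markers, was the lowest of all 6; without it the log2 difference was -0.26, and the part of those cells was not tested.

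Gdf15 encodes a secreted stress factor of the transforming growth factor beta superfamily, induced by p53 and by the integrated stress response (chromosome 8, 70629393 to 70632456). Its summed FPKM was 19.2, 5.19 and 6.32 in WT and 6.01, 1.88 and 4.65 in fat-1. WT replicate 1 was far above every other library, and fat-1 replicate 1 lay between the other 2 WT libraries, so the groups overlapped. Means were 10.2 ± 7.79 and 4.18 ± 2.10 FPKM (SD, n = 3), the lower in fat-1. The log2 difference was -1.0 ± 0.52 (SE), with a 95% interval from -2.25 to 0.25 (limma adjusted p = 0.634). Without WT replicate 1 it was -0.47 and without fat-1 replicate 2 -0.63. Macrophage, B cell and neutrophil marker sums were also highest in WT replicate 1 (914, 342 and 54.0 FPKM), and their part was not tested.

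The 2 listed Gdf15 transcripts, annotated with 303 residues each, start at the 2 sites whose upstream bases are shown above. Gdf15-201 was at 14.9, 3.53 and 2.71 FPKM in WT and at 6.01, 0.756 and 4.65 FPKM in fat-1. Gdf15-202 was at 4.27, 1.66 and 3.61 FPKM in WT; in fat-1 it was listed at 0 in replicates 1 and 3 and was at 1.13 FPKM in replicate 2. All 3 fat-1 libraries were thus below all 3 WT libraries for Gdf15-202, a split picked out after its values were seen and not tested. The transcripts share 1073 of 1545 and 1380 bases, so the division between them rests on the remaining bases.

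Plaur encodes the urokinase receptor, which binds the protease urokinase at the cell surface and marks many senescent and activated myeloid cells (chromosome 7, 24462484 to 24475967). It was at 0.608, 1.39 and 2.21 FPKM in WT and at 3.56, 2.30 and 4.75 FPKM in fat-1. All 3 fat-1 libraries were above all 3 WT libraries, although fat-1 replicate 2 exceeded WT replicate 3 by under 0.1 FPKM. Means were 1.40 ± 0.800 and 3.54 ± 1.23 FPKM (SD, n = 3), a ratio of 2.52. The log2 difference was 0.94 ± 0.32 (SE), with a 95% interval from 0.18 to 1.69; the unadjusted p in limma was 0.0221 and the adjusted p 0.370. Leaving out WT replicate 1 together with fat-1 replicate 3 gave 0.49 (adjusted p = 0.524). Over the 11698 genes, 8.33% had every fat-1 library above every WT library.

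**Figure D3:**
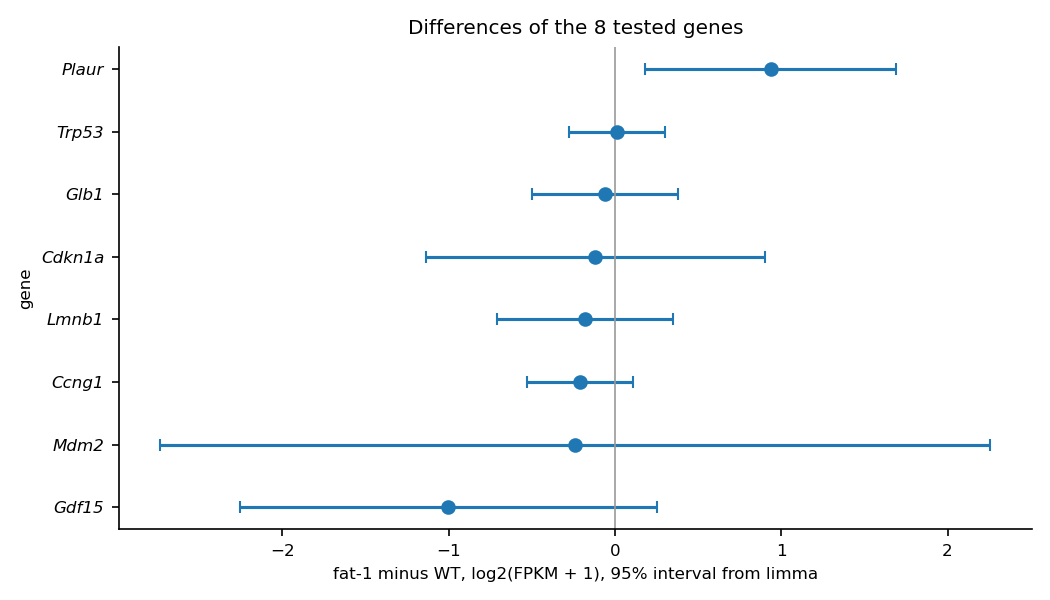
Difference between fat-1 and WT on the log2(FPKM + 1) scale (horizontal axis) for the 8 tested genes, with 95% intervals from limma, not adjusted for the number of genes tested. The interval of Plaur, 0.18 to 1.69, lies above 0, those of the other 7 include it, and that of Mdm2, -2.73 to 2.26, is the widest.

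Levels of myeloid and endothelial markers stood beside Plaur as follows. Plaur was lowest in WT replicate 1, where macrophage markers (914 FPKM) and neutrophil markers (54.0 FPKM) were highest. Of the 11 tested macrophage and monocyte markers, 2 had a positive difference and 0 were called. The 10 endothelial markers, by contrast, summed to 92.9 to 113 FPKM in WT and to 184 to 250 FPKM in fat-1. All 10 had a positive difference. Only 1, Plvap, was called in limma, just under the threshold (adjusted p = 0.0496), against 0.18% of all tested genes. Sums of 3 other marker lists also did not overlap between the groups. Podocyte markers summed to 73.1 to 93.3 FPKM in WT and 113 to 128 FPKM in fat-1. Those of the distal convoluted tubule summed to 357 to 520 against 204 to 310 FPKM, and those of intercalated cells to 172 to 185 against 125 to 147 FPKM. Exact two-sided permutation of each of these 4 sums gave the smallest p possible, 0.1. Each sum weights the most abundant genes of its list most. Gene by gene, fat-1 lay wholly above WT for 10 of 10 endothelial and 4 of 8 podocyte markers, against 8.33% of all tested genes. It lay wholly below for 2 of 6 distal convoluted tubule and 4 of 7 intercalated cell markers, against 6.86%. The podocyte marker Synpo (-0.22) and the intercalated cell marker Aqp6 (0.31) went the other way. The part of these cell types in Plaur, in the other members and in the pathway lists was not tested.

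**Figure D4:**
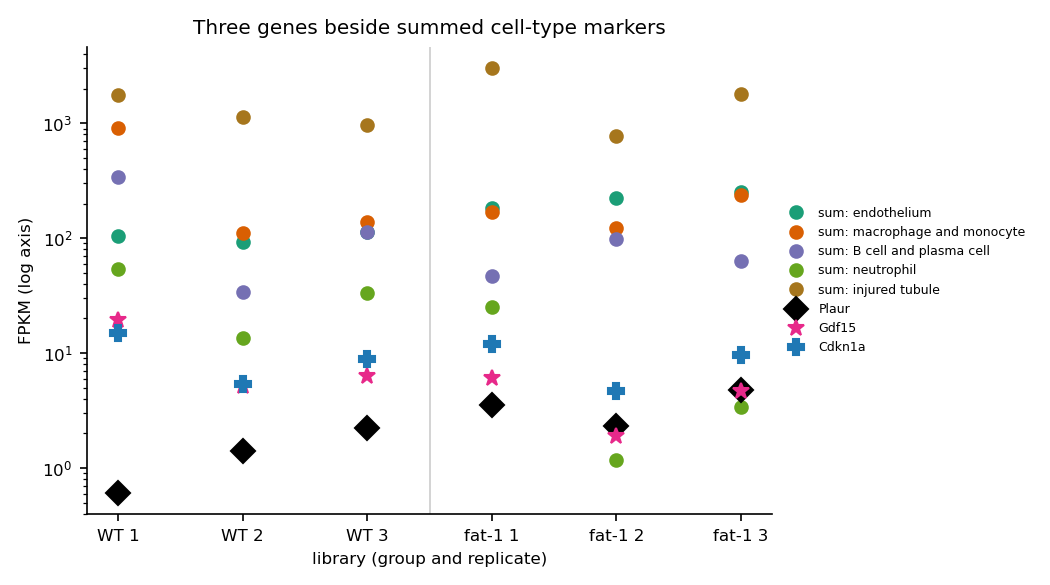
FPKM on a log axis of Plaur, Gdf15 and Cdkn1a in the 6 libraries, beside the summed FPKM of 5 marker lists. Gdf15 and the macrophage, B cell and neutrophil sums are highest in WT replicate 1, where Plaur is lowest at 0.608 FPKM; the endothelial sum is higher in all 3 fat-1 libraries.

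Transcripts for proteins around the urokinase receptor were examined too. In the plasminogen list, 10 of 16 genes were tested, 0 were called, and 7 had a positive and 3 a negative difference (median 0.25, and 0.06 to 0.37 with 1 library left out). Plat, the tissue-type plasminogen activator, was at 19.6, 20.2 and 21.4 FPKM in WT and at 31.5, 39.2 and 47.4 FPKM in fat-1, a log2 difference of 0.90 ± 0.16 (SE; limma adjusted p = 0.103). Plau, urokinase itself and the ligand of Plaur, was on the other side, at 324, 240 and 286 FPKM in WT and 143, 174 and 239 FPKM in fat-1 (-0.63 ± 0.21; adjusted p = 0.370). Neither pair of groups overlapped, though for Plau the gap between WT replicate 2 and fat-1 replicate 3 was under 1 FPKM. Of the 10 tested genes, 1 was thus wholly higher in fat-1 (8.33% of all tested genes) and 1 wholly lower (6.86%). Serpinf2, an inhibitor of plasmin, was at 115 ± 34.2 and 73.9 ± 7.56 FPKM, and the integrin gene Itgb1 at 67.1 ± 8.65 and 78.4 ± 3.98 FPKM (SD, n = 3).

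Among 32 other targets of p53, 28 were tested and 0 were called in limma; 12 had a positive and 16 a negative difference, with a median of -0.03. The 4 with the smallest p were the pore-forming death gene Bax, at 36.9 ± 7.77 FPKM in WT and 25.4 ± 6.45 in fat-1 (SD, n = 3), the metabolic regulator Tigar, at 3.20 ± 0.226 and 2.45 ± 0.244, the apoptosome gene Apaf1, at 0.778 ± 0.325 and 1.23 ± 0.103, and the kinase gene Plk2, at 4.04 ± 0.984 and 5.34 ± 1.15. Their adjusted p lay between 0.520 and 0.719. Groups did not overlap for Apaf1, higher in fat-1, and Tigar, lower, as for 15.2% of all tested genes.

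Of 23 symbols for regulators of p53 and DNA damage signalling, 19 were tested and 0 called, with a median of 0.03. Nbn, a subunit of the complex that senses double-strand breaks, was at 10.6, 12.3 and 11.3 FPKM in WT and 14.2, 14.9 and 16.0 FPKM in fat-1, with no overlap (0.38 ± 0.11, SE; limma adjusted p = 0.299). Of the 19 tested genes, Nbn alone had no overlap between the groups, against 15.2% of all tested genes. The ubiquitin ligase gene Rchy1 was at 30.8 ± 4.81 and 24.2 ± 3.87 FPKM and the kinase gene Hipk2 at 2.37 ± 0.392 and 3.03 ± 0.696 FPKM (SD, n = 3). Sirt1, a deacetylase that acts on p53, was at 2.45 and 7.30 FPKM and listed at 0 in WT, and at 5.50, 6.32 and 7.73 FPKM in fat-1, so the groups overlapped.

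In the list of CDK inhibitors, cyclins and the retinoblastoma arm, 17 of 22 were tested, 0 were called and the median was 0.04. Ccnd1, encoding cyclin D1, was at 122, 69.1 and 66.1 FPKM in WT and 66.2, 58.2 and 38.0 FPKM in fat-1, and the inhibitor gene Cdkn1b, encoding p27, at 21.8 ± 4.54 and 17.4 ± 2.05 FPKM (SD, n = 3). Cdk2 was at 1.63 ± 0.387 and 3.11 ± 1.42 FPKM and E2f5 at 17.6 ± 1.26 and 15.2 ± 1.47 FPKM.

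Proliferation genes, which p53 and p21 restrain, had a median of -0.33. Of 22 genes, 13 were tested and 0 were called in limma, 10 with a negative difference. In 5 of the 13, Birc5, Ccna2, Ccnb2, Rrm2 and, named after its values were seen, Top2a, every fat-1 library lay below every WT library, against 6.86% of all tested genes. Birc5, encoding survivin, was at 4.54, 3.28 and 2.78 FPKM in WT and 1.33, 0.331 and 1.21 FPKM in fat-1 (-1.24 ± 0.27, SE; adjusted p = 0.159). Ccna2, encoding cyclin A2, was at 2.73, 1.54 and 1.95 FPKM against 0.775, 0.687 and 0.458 FPKM (-0.89 ± 0.21; adjusted p = 0.176). Of the 13, 3 (Ccna2, Ccnb2 and Top2a) passed the filter through WT alone and so had to differ. All 3 are among the 5 named above, so part of that count was fixed by the filter. With no filter, 17 of 20 listed genes had a negative difference and 8 had fat-1 wholly below WT, against 6.56% of all listed genes; 0 had it wholly above, against 8.05%. Leaving out fat-1 replicate 2 put the list's median at -0.03, and leaving out WT replicate 1 put it at -0.14. It was -0.53 without fat-1 replicate 1. WT replicate 3 left out gave -0.54. With a filter of 1 FPKM in all 6 libraries it was -0.094. In the deposited FPKM the 5 genes named above are low. Pcna, the most abundant of the list and named after its values were seen, was at 29.5 ± 4.78 and 27.4 ± 3.23 FPKM (-0.09). Of the 13, 3 had a positive difference. The B cell, plasma cell and macrophage markers were highest in WT replicate 1, and the part of immune cells was not tested.

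In the transforming growth factor beta arm upstream of Cdkn2b, 14 of 16 genes were tested, 0 were called and the median was 0.16 (0.04 to 0.33 with 1 library left out). Myc, whose product represses Cdkn2b, was at 4.76, 2.70 and 2.34 FPKM in WT and 5.36, 5.47 and 6.63 FPKM in fat-1, with no overlap (0.71 ± 0.23, SE; limma adjusted p = 0.352). The feedback inhibitor gene Smad7 was at 6.14 ± 0.810 and 8.12 ± 1.07 FPKM (SD, n = 3), also without overlap. Of the 14 tested genes, these 2 had fat-1 wholly above WT, against 8.33% of all tested genes. Skil was at 4.02 ± 2.13 and 5.77 ± 2.27 FPKM and Ltbp1 at 1.04 ± 0.659 and 2.29 ± 2.14 FPKM.

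Around Lmnb1, all 18 lamina and nuclear envelope genes were tested, 0 were called and the median was 0.05. Sun2, which links the lamina to the cytoskeleton, was at 5.93, 4.18 and 3.56 FPKM in WT and 5.94, 7.80 and 6.36 FPKM in fat-1 (0.48 ± 0.20, SE; limma adjusted p = 0.486). The lamina-associated gene Tmpo was at 17.3 ± 1.04 and 14.1 ± 1.69 FPKM (SD, n = 3), Syne3 at 0.697 ± 0.305 and 1.27 ± 0.184 FPKM and Sun1 at 6.91 ± 2.28 and 9.31 ± 3.14 FPKM. Sun2 and Syne3 were higher and Tmpo lower in every fat-1 library than in every WT library, 3 of 18 genes against 15.2% of all tested genes. Syne3 passed the filter through fat-1 alone and so had to differ.

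Around Glb1, 27 of 28 lysosomal genes were tested, 0 were called, and 21 had a negative and 6 a positive difference (median -0.11). For 6 of the 27 every fat-1 library lay below every WT library, and for 0 above, against 6.86% and 8.33% of all tested genes. Galns, whose product forms a complex with beta-galactosidase, was at 36.7, 51.4 and 46.7 FPKM in WT and 31.0, 34.8 and 34.0 FPKM in fat-1 (-0.41 ± 0.15, SE; limma adjusted p = 0.414). Gusb, the beta-glucuronidase gene, was at 9.97 ± 1.60 and 5.78 ± 1.48 FPKM and Arsb, a sulfatase gene, at 47.9 ± 2.69 and 35.5 ± 6.41 FPKM (SD, n = 3). With 1 library left out the median lay between -0.16 and -0.06.

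Around Gdf15, 16 of 22 genes of the integrated stress response were tested, 0 were called, and 8 differences were positive and 8 negative (median 0.01). Psat1, an enzyme of serine synthesis, was at 3.56, 3.51 and 2.74 FPKM in WT and 5.70, 6.08 and 5.75 FPKM in fat-1, with no overlap (0.69 ± 0.15, SE; limma adjusted p = 0.142). Of the 16 tested genes, Psat1 alone had no overlap between the groups, against 15.2% of all tested genes. Mthfd2, of mitochondrial folate metabolism, was at 3.88 ± 1.86 and 2.25 ± 0.509 FPKM (SD, n = 3), the asparagine synthetase gene Asns at 2.52 ± 0.441 and 1.97 ± 0.497 FPKM and the transcription factor gene Cebpb at 13.3 ± 7.11 and 17.4 ± 3.89 FPKM.

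Among factors that senescent cells secrete, 20 of 34 genes were tested, 0 were called, 11 had a positive and 9 a negative difference, and the median was 0.05. Igfbp3, which binds insulin-like growth factors, was at 74.0, 35.9 and 55.2 FPKM in WT and 98.4, 228 and 113 FPKM in fat-1 (1.35 ± 0.38, SE; limma adjusted p = 0.270). The elastase gene Mmp12 was at 0.894, 0.260 and 0.212 FPKM against 1.21, 1.82 and 2.21 FPKM (0.93 ± 0.25; adjusted p = 0.251). Of the 20 tested genes of this list, these 2 had fat-1 wholly above WT, where 8.33% of all tested genes did. Mmp12 reached 1 FPKM in the fat-1 libraries alone, so it passed the filter through fat-1 and had to differ. Igfbp5 was at 48.3 ± 7.64 and 83.1 ± 41.6 FPKM and Timp2, an inhibitor of matrix proteases, at 11.9 ± 2.78 and 16.9 ± 4.94 FPKM (SD, n = 3). The median changed sign with the library left out, from -0.06 without WT replicate 3 to 0.58 without WT replicate 1.

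**Figure D5:**
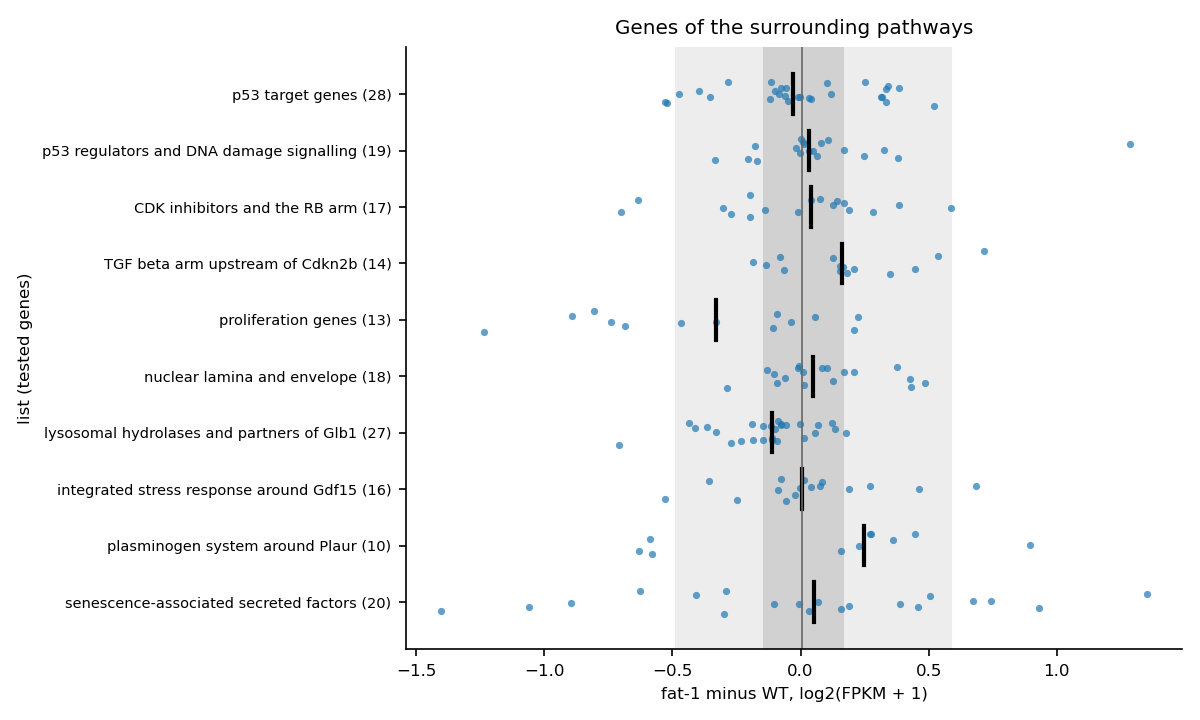
Difference between fat-1 and WT on the log2(FPKM + 1) scale (horizontal axis) for the tested genes of 10 pathway lists; points are genes, black bars list medians, and the shaded bands run from the 25th to the 75th and from the 5th to the 95th percentile of all tested genes. No point is a called gene; the median of the proliferation list is -0.33 and that of the plasminogen list 0.25.

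For each tested member, the gene of the 10 lists with the nearest profile was found by the root mean square distance between log2(FPKM + 1) values, each centred on its mean over the 6 libraries, among 180 genes. Gdf15 was nearest to the chemokine gene Ccl2, at a distance of 0.24 where the profile of Gdf15 itself had a root mean square of 0.83, and next to Timp1 (0.31). Ccl2 was at 15.1 FPKM in WT replicate 1 and between 1.14 and 3.37 FPKM in the other 5 libraries. Cdkn1a was nearest to Tgif1 and the p53 target Bbc3 (0.27 and 0.29, against 0.53 for Cdkn1a itself). Plaur was nearest to Plat and Skil (0.34 and 0.38, against 0.60), and Glb1 to Igfbp4 and Xpc (0.08 and 0.13, against 0.21). Lmnb1 was nearest to Sesn1 and Mdc1 (0.10 and 0.12, against 0.25), Ccng1 to E2f5 and Tigar (0.11 and 0.12, against 0.16) and Trp53 to E2f4 and Fdxr (0.06 and 0.09, against 0.10). No gene came close to Mdm2, whose nearest, Arsa, was at 1.02 against 1.34. With 6 libraries, such distances describe these samples only.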

How the data were processed

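RNA of 6 kidney samples was measured, 3 WT and 3 fat-1, grouped by the genotype label. The deposited tables, 1 per sample, give FPKM per transcript, per the file headers, for 27486 protein-coding transcripts that each reach 0.5 FPKM in at least 1 library. Tools named by the submitters' processing notes are DESeq2 1.20.0, featureCounts 1.5.0-p3 and HISAT2 2.0.5, with build mm10; which of them produced the FPKM is not stated there. FPKM depends on how fragments were divided between transcripts and on a few abundant genes.

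Transcripts were summed per gene identifier, and date-like symbols on 64 lines in 4 tables were restored. The 11698 genes that reached 1 FPKM in 3 or more libraries entered a limma fit (version 3.58.1, R 4.3.3) of log2(FPKM + 1), with trend and robust variance, no covariates and Benjamini-Hochberg adjustment. On simulated data the fit recovered 65.7% of 2-fold and 94.5% of 4-fold changes, and 6.86% and 5.81% of its calls were false. The changes were planted in the more abundant genes only, so low genes were not covered. A difference on the log2(FPKM + 1) scale understates the change of low genes. The gene below the filter had an exact permutation test. Low values times length fell within 0.05 of a whole multiple of the best step for 20.6% to 25.8% of values (10% if evenly spread), so whole reads were not recovered; without a known depth, no interval for counting error was computed. Transcript structures came from GENCODE M21 on the same build; Cdkn1a and Cdkn2b have newer transcript versions there.

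Members and lists were chosen with earlier results of these data known. Named genes are the 9 members, the 4 smallest p and any called gene in each list, and the 2 nearest profiles of each tested member; 1 gene that the rule names is not reported here. Marker lists cover 14 cell types; those without values in the text had 0 called genes. Alternatives covered pseudocount, filter, scaling, robust estimation, the leading transcript alone and each library left out. Python 3.11.15 and pandas 2.3.3 were used for joins.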

Additional observations from a re-analysis of the deposited data

How the results depend on the processing

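None of the 8 tested members passed an adjusted p of 0.05 in limma under any alternative tried, and Plaur (lowest adjusted p 0.370) kept a positive and Gdf15 and Ccng1 a negative difference in all of them. The filter of 1 FPKM in all 6 libraries gave no value for Plaur or Cdkn2b, and Cdkn2b also had none under quantile normalization or without robust estimation. The number of genes called over the whole table was 21; it was 4 with no filter, 33 with scaling to the nuclear total, 8 with median-of-ratios scaling, 11 with upper-quartile scaling, 34 with quantile normalization and 3 with the leading transcript only, and with 1 library left out it lay between 0 (leaving out the third WT library, or the first or the third of fat-1) and 26 (840 to 1602 genes at an unadjusted p under 0.05). In limma it was 0 with WT replicate 1 and fat-1 replicate 3 both left out (1461 genes at an unadjusted p under 0.05) and 0 with replicate 3 of each group left out (861); both pairs were chosen after seeing the data. The split of the calls moved with scaling: 4 higher and 4 lower with median-of-ratios, 21 and 13 with quantile normalization, 25 and 8 with the nuclear total, against 14 and 7.

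Several differences close to 0 changed sign. With 1 library or either of these pairs left out, Cdkn1a lay between -0.45 and 0.24, Cdkn2b between -0.31 and 0.59, Trp53 between -0.064 and 0.076, Mdm2 between -1.66 and 0.63, Lmnb1 between -0.44 and 0.013, and Glb1 between -0.30 and 0.045. Mdm2 was at 0.89 with the leading transcript only, Trp53 at 0.65 with it and at -0.0058 with median-of-ratios scaling. The cause was not tested. No paired analysis was possible because the replicate numbers of the fat-1 samples only follow the order of the samples.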
